A study of Mus musculus with 8 samples.

Results

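Transcription factors of the immediate early class were followed in liver lacking the corepressor NCOR. The 10 genes, Jun, Junb, Jund, Fos, Fosb, Egr1, Atf3, Ier2, Myc and Klf6, were taken by symbol from rows of the array annotated to 1 gene only, keeping the brightest row of a gene by its mean over 8 arrays, and all 10 were found among the 22180 genes tested. Liver RNA came from 3-month-old mice on normal chow and was hybridised to Affymetrix Mouse Gene 2.0 arrays. For the 4 arrays of the NCOR_KO group, mice with floxed NCOR had received adeno-associated virus (AAV, a vector for gene delivery) carrying Cre recombinase by vein. For the 4 arrays of the WT group, mice had received the same kind of virus carrying GFP. Livers were frozen 2 weeks after injection, at 5 pm (ZT10). By their label the controls were wild-type, but the series' design describes floxed animals for Cre and GFP alike, so whether the controls carried the floxed allele is unsettled. Only the NCOR_KO mice received Cre, so an effect of Cre and loss of NCOR cannot be told apart. The promoter that drove Cre is not given in the sources used here, and Ncor1 itself was not analysed here. The labels call the replicates biological without naming animals, so the p-values cover the spread among these arrays, some of which may be technical. In bulk liver, fewer cells of a type and less RNA per cell cannot be told apart.

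Immediate early genes are transcribed within minutes of a stimulus, without new protein synthesis, when kinase cascades act on factors already bound at their promoters. JUN, JUNB, JUND, FOS and FOSB are leucine zipper proteins that pair to form AP-1, which binds DNA elements in genes of growth, stress and inflammation, and JUN also acts on elements in its own promoter. In liver these genes are known for their surge after partial hepatectomy, fasting and refeeding, or injury. NCOR, together with the deacetylase HDAC3, is known as a corepressor of nuclear receptors and has also been tied to repression of AP-1 bound genes.

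The array medians lay between 41.0 and 44.1 in linear intensity, and the number of arrays limits the precision of every value. Values below are log2 intensities, which are relative to each gene's own probes. Levels of different genes, where set beside each other or the median gene level or summed over a list, are therefore only a rough guide. Changes are NCOR_KO minus WT on the log2 scale, with standard errors (SE), 95% confidence intervals and p-values from limma, adjusted by Benjamini-Hochberg over all 22180 genes and called below 0.05. The hepatocyte markers Alb, Apoa1, Ttr, Serpina1c and Fgb summed to 43531 to 44920 in linear intensity in WT and 42716 to 43958 in NCOR_KO. Of the 5, 0 were called by limma (1 at an unadjusted p under 0.05, where 15.9% of all genes passed). WT replicate 2 (-20.5) and NCOR_KO replicate 1 (-12.2) stood lowest on the second principal component of all genes.

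Of the 10 transcription factors 1 rose in NCOR_KO liver, Jun, 0 fell and 9 did not pass the test. Among all genes tested 1.65% were called, 0.816% as higher and 0.834% as lower. At an unadjusted p under 0.05 there were 4 genes, all higher (Jun, Myc, Jund and Klf6), where 15.9% of all genes passed, 7.75% as higher and 8.15% as lower. Changes were above 0 for 7 genes and below 0 for 3, where 52.0% of all genes were above 0. Their median was 0.12 beside a median of 0.0063 over all genes. The NCOR_KO values lay wholly above the WT values for 2 of the 10, Jun and Klf6, a separation in that direction that 4.90% of all genes showed.

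**Figure D1:**
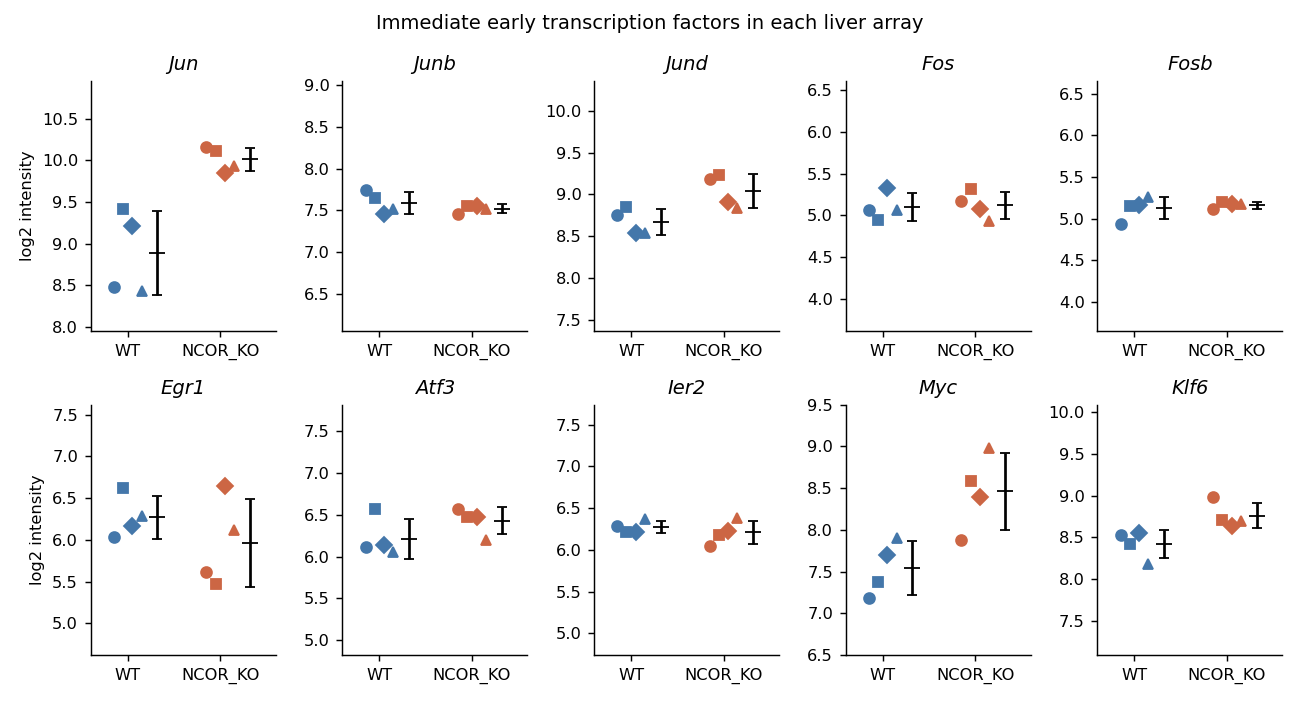
Log2 intensity (vertical axis, each panel spanning the same height) of the 10 transcription factors in 4 WT (blue) and 4 NCOR_KO (orange) liver arrays, with circle, square, diamond and triangle for replicates 1 to 4 and black bars for mean and SD. Jun lies between 8.43 and 9.41 in WT and between 9.85 and 10.16 in NCOR_KO, while the groups overlap for Junb, Jund, Fos, Fosb, Egr1, Atf3, Ier2 and Myc.

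Jun encodes c-JUN, the most potent transactivator among the JUN proteins and the namesake substrate of the JNK kinases. In WT replicates 1 to 4 its log2 intensity was 8.48, 9.41, 9.21 and 8.43. In NCOR_KO replicates 1 to 4 it was 10.16, 10.11, 9.85 and 9.93. Every NCOR_KO liver thus lay above every WT liver, and the WT livers fell into a lower pair (replicates 1 and 4) and a higher pair (replicates 2 and 3), while the NCOR_KO livers lay close together. Jun went from 8.89 ± 0.50 to 10.01 ± 0.14 (SD, n = 4), a 2.18-fold rise (log2 change 1.13 ± 0.20 SE, 95% interval 0.67 to 1.58, limma adjusted p = 0.0277). The size of the change was 0.97 to 1.30 when single arrays were left out, but the adjusted p then ran from 0.00975 to 0.0929. The call was lost without WT replicates 1 (adjusted p = 0.0679) and 4 (0.0639) and without NCOR_KO replicates 1 (0.0768), 2 (0.0929), 3 (0.0561) and 4 (0.0553), and it held without WT replicates 2 and 3. Without WT replicate 2 and NCOR_KO replicate 1 together the change was 1.25 (limma adjusted p = 0.0236), while a limma treat test, which asks for a change beyond 1.2-fold, gave an adjusted p of 0.244.

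The Jun promoter is printed here because it carries the AP-1-like elements through which Jun is known to respond to AP-1 itself, and the Klf6 promoter because Klf6 is the other gene whose groups did not overlap. Both are the 250 bases before the RefSeq start on GRCm38.p6, 5′ to 3′ along the gene, at chr4:95052223-95052472 on the minus strand for Jun and chr13:5861239-5861488 on the plus strand for Klf6. Capitals in Jun mark TTACCTCA and TGACATCA, known as the distal and proximal AP-1-like elements of this gene, and capitals in Klf6 mark TGACATCA and the E-box CACGTG, an element that MYC with MAX, and the clock factors, can bind.
Jun: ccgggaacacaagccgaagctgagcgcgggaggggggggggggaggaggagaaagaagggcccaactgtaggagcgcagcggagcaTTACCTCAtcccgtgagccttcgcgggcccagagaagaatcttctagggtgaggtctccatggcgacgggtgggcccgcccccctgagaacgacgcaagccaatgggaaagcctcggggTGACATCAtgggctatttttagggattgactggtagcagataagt
Klf6: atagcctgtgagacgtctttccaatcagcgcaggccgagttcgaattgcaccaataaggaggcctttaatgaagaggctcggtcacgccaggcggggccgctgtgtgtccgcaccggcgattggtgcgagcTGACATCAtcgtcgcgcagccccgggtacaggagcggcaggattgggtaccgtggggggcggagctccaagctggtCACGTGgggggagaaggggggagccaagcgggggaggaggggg

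In Jun, TGACATCA spans bases 45 to 38 before the start and TTACCTCA bases 164 to 157. In Klf6, TGACATCA spans bases 119 to 112 and the E-box bases 43 to 38. Promoter windows were at hand for 7 of the 10 genes (Jun, Junb, Jund, Fos, Fosb, Atf3 and Klf6). Searched on both strands, TGACATCA was found in 2 of the 7 (Jun and Klf6) and in 2.93% of 32851 promoter windows of the same length, TTACCTCA in 1 (Jun) and in 0.728%, and CACGTG in 1 (Klf6) and in 6.02%. TGACATCA and TTACCTCA were searched as known elements of Jun, so the matches in Jun were fixed in advance and cannot be set against those shares. The AP-1 element TGACTCA (4.46% of windows), the cyclic AMP element TGACGTCA (1.55%), the half-site TAGGTCA bound by REV-ERB and ROR (2.23%) and the CArG box bound by serum response factor (1.47%) were in 0 of the 7 windows. No searched motif overlapped another in the printed sequences. These letter matches describe the windows only, and no binding was measured.

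Jund, the JUN protein most tied to quiescence, was the other JUN gene with higher values in NCOR_KO liver. WT replicates 1 to 4 were at 8.75, 8.85, 8.54 and 8.54, and NCOR_KO replicates 1 to 4 at 9.19, 9.23, 8.91 and 8.84. The groups touched, since NCOR_KO replicate 4 lay just under WT replicate 2. The means were 8.67 ± 0.16 and 9.04 ± 0.20 (SD, n = 4), and the change of 0.37 ± 0.11 (SE, 95% interval 0.13 to 0.61) did not pass (limma adjusted p = 0.128). Jund was the only one of the 10 genes with a second row, and that dimmer row went from 6.02 ± 0.21 to 5.96 ± 0.15 (SD, n = 4), a change of -0.06 (95% interval -0.30 to 0.19, limma adjusted p = 0.841). The rows of Jund thus disagreed, and their mean changed by 0.16.

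Junb, a JUN protein that can oppose JUN at shared elements, was at 7.74, 7.65, 7.45 and 7.52 in WT replicates 1 to 4 and at 7.45, 7.55, 7.55 and 7.52 in NCOR_KO replicates 1 to 4. The NCOR_KO livers sat within the WT range to 2 decimals. Its change was -0.07 (95% interval -0.24 to 0.09, limma adjusted p = 0.661).

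The FOS proteins need a JUN partner to bind DNA. Fos was at 5.06, 4.94, 5.33 and 5.06 in WT replicates 1 to 4 and at 5.17, 5.32, 5.07 and 4.93 in NCOR_KO replicates 1 to 4. The groups covered the same range, and the change of 0.02 (95% interval -0.20 to 0.25, limma adjusted p = 0.940) became -0.02 with quantile normalization and -0.01 with each array centred on its median. Fosb was at 4.94 to 5.26 in WT and at 5.12 to 5.20 in NCOR_KO liver. Its change was 0.04 (95% interval -0.12 to 0.20, limma adjusted p = 0.840), or -0.01 with quantile normalization. Both rows lay under the median gene level of 5.88, and the table gives no background level against which to read them.

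Egr1 encodes a zinc finger factor induced by the ERK pathway, and Atf3 a stress-induced member of the ATF family that can pair with JUN. Egr1 was at 6.03, 6.62, 6.16 and 6.29 in WT replicates 1 to 4 and at 5.61, 5.47, 6.64 and 6.12 in NCOR_KO replicates 1 to 4. NCOR_KO replicates 1 and 2 lay below every WT liver, and NCOR_KO replicate 3 lay just above the highest. With an SD of 0.53 in NCOR_KO and 0.26 in WT the change of -0.31 had an interval of -0.82 to 0.20 (limma adjusted p = 0.544). Egr1 had the widest spread within groups of the 10 genes (pooled SD 0.42), where the median over all genes was 0.11.

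Atf3 was at 6.11, 6.57, 6.14 and 6.05 in WT replicates 1 to 4 and at 6.57, 6.47, 6.47 and 6.20 in NCOR_KO replicates 1 to 4. WT replicate 2 stood apart from the other controls and reached the top of the NCOR_KO range. The change was 0.21 (95% interval -0.05 to 0.48, limma adjusted p = 0.426), and without WT replicate 2 it was 0.33 (limma adjusted p = 0.113). Ier2, a small nuclear protein of the immediate early class, was at 6.21 to 6.37 in WT and at 6.05 to 6.38 in NCOR_KO liver, and its change of -0.06 (95% interval -0.23 to 0.11) did not pass (limma adjusted p = 0.741).

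Myc encodes a helix-loop-helix leucine zipper factor that drives ribosome production and growth with its partner MAX. It was at 7.18, 7.38, 7.70 and 7.90 in WT replicates 1 to 4 and at 7.88, 8.59, 8.39 and 8.98 in NCOR_KO replicates 1 to 4. All 4 NCOR_KO livers lay above the WT mean, but NCOR_KO replicate 1 lay just below WT replicate 4. Myc went from 7.54 ± 0.32 to 8.46 ± 0.46 (SD, n = 4), a change of 0.92 ± 0.22 (SE, 95% interval 0.44 to 1.40) that missed the threshold (limma adjusted p = 0.0699). Without NCOR_KO replicate 1 the change was 1.11 (limma adjusted p = 0.0312), without it and WT replicate 2 together 1.06 (limma adjusted p = 0.0483), and over single arrays left out the adjusted p ran from 0.0312 to 0.180.

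Klf6, a zinc finger factor of the Krüppel-like family that is induced by injury, was at 8.53, 8.42, 8.55 and 8.18 in WT replicates 1 to 4. In NCOR_KO replicates 1 to 4 it was at 8.98, 8.71, 8.64 and 8.70. The groups did not overlap, with a gap between WT replicate 3 and NCOR_KO replicate 3 that was smaller than the SD of either group (0.17 and 0.15). The change of 0.34 ± 0.10 (SE, 95% interval 0.12 to 0.56) did not pass (limma adjusted p = 0.130).

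**Figure D2:**
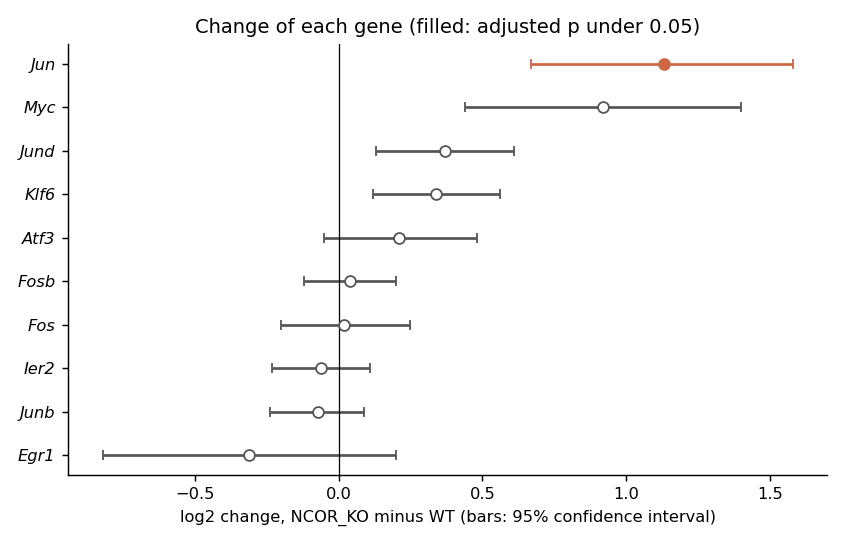
Log2 change from WT to NCOR_KO (horizontal axis, points) with 95% confidence intervals from the fit over 22180 genes (bars), for the 10 genes in order of size. Jun (1.13, filled) passed at an adjusted p under 0.05, Myc (0.92), Jund (0.37) and Klf6 (0.34) have intervals above 0 but did not pass, and the other 6 intervals include 0.

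Jun was then set against the rest. Each gene was centred on its own mean over the 8 arrays, and the mean of the other 9 genes was taken from Jun in each array. The difference was -0.82, -0.02, -0.16 and -0.93 in WT replicates 1 to 4 and 0.70, 0.57, 0.28 and 0.38 in NCOR_KO replicates 1 to 4. All NCOR_KO livers were above 0 and all WT livers below it, with WT replicate 2 closest to 0. Between groups the difference moved by 0.97, while the mean of the other 9 genes moved by 0.16, from -0.08 ± 0.05 to 0.08 ± 0.05 (SD, n = 4). That mean covers genes that went both ways, Myc (0.92) among them, and a mean over 9 genes varies less than a single gene, so it is no measure of any one of them. These are descriptions of genes chosen with results known, with no test.

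The 5 genes whose centred profiles over the 8 arrays were most like that of Jun, by the root mean square difference on the log2 scale, were Slc45a3 (0.182), Acot2 (0.228), Ehhadh (0.234), G0s2 (0.246) and Nfil3 (0.248). Likeness was taken over both groups together, so genes picked this way are bound to differ between groups much as Jun does. Their changes, adjusted p-values and patterns among the controls describe that choice and are no separate result. Slc45a3, of a sugar transporter family, came closest, at 7.60, 8.42, 8.64 and 7.93 in WT replicates 1 to 4 and 9.18, 9.08, 9.02 and 9.08 in NCOR_KO replicates 1 to 4. Like Jun it was lower in WT replicates 1 and 4 than in replicates 2 and 3, and it rose by 0.94 (limma adjusted p = 0.0376), a call lost in 9 of 18 alternative fits. Acot2 and Ehhadh, PPARα targets of fatty acid oxidation, and the clock-linked repressor gene Nfil3 rose by 1.19, 1.18 and 1.03 (limma adjusted p = 0.00435, 8.88e-05 and 0.00338). G0s2, which encodes an inhibitor of the lipase ATGL, was at 0.82 (limma adjusted p = 0.0691) on its brighter row and at 0.52 with the mean of its rows. Among 18633 genes ranked for likeness to Jun, Jund was at rank 191, Klf6 at 216, Atf3 at 330 and Myc at 357. Their differences from Jun, 0.48, 0.49, 0.51 and 0.52, were well above those of the 5 genes named. Fosb (5502), Fos (6725), Junb (13803), Ier2 (14740) and Egr1 (18378) were far down.

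**Figure D3:**
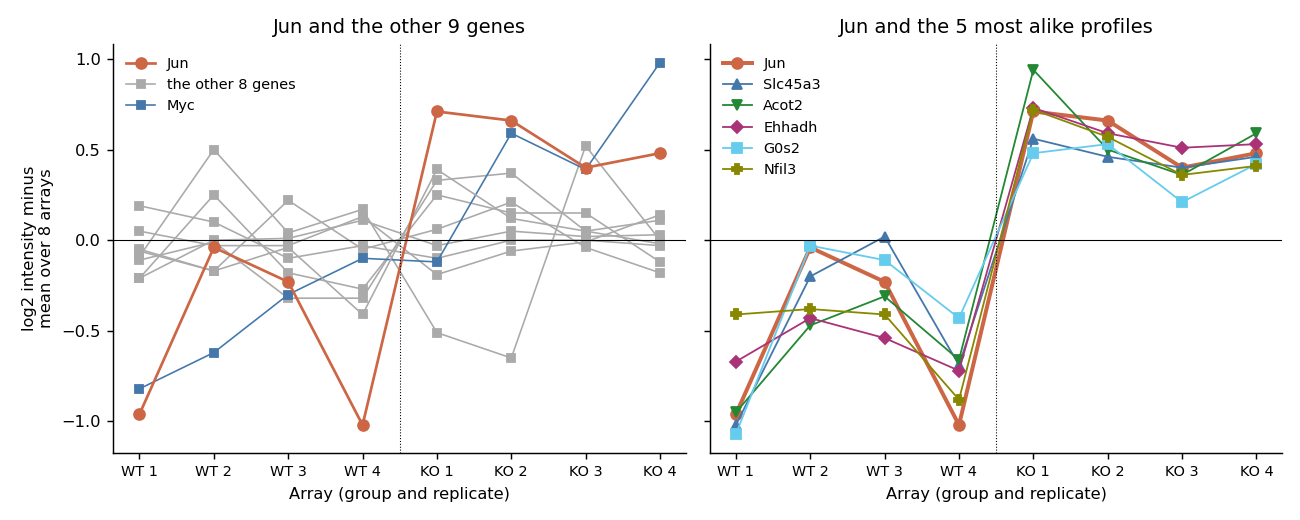
Log2 intensity minus the gene's mean over 8 arrays (vertical axis) in each array (horizontal axis, WT left and NCOR_KO right of the dotted line), for Jun, Myc (blue) and the other 8 transcription factors (grey) (left) and for Jun and the 5 genes with the most alike profiles (right); lines only join the points of a gene. Jun runs from -1.02 to 0.71 and Myc, which spans a slightly wider range, from -0.82 to 0.98.

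Other immediate early genes were read from a list of 25, all measured. Of these 1 rose (0.816% over all genes), 0 fell (0.834% over all genes) and 24 did not pass. Changes were above 0 for 21 (52.0% over all genes), and the median change was 0.08. At an unadjusted p under 0.05 there were 7 higher and 0 lower, where 7.75% of all genes were higher at that level. The 1 that rose was Gadd45b, a stress gene that acts on the JNK pathway. It was at 6.42, 7.27, 7.37 and 6.56 in WT replicates 1 to 4 and at 10.08, 8.69, 8.73 and 9.03 in NCOR_KO replicates 1 to 4, a change of 2.23 ± 0.31 (SE, limma adjusted p = 0.00790). As for Jun, WT replicates 1 and 4 were the lower pair of controls and NCOR_KO replicate 1 was the highest array. Dusp1, a phosphatase of JNK and p38 named here after its values were seen, was at 0.72 ± 0.22 (SE, limma adjusted p = 0.141).

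No call was made among the genes that carry signals to these factors or pair with them. Of 11 measured AP-1 and bZIP partner genes 0 were called (1 higher and 1 lower at an unadjusted p under 0.05, median 0.06). Over all genes 7.75% were higher and 8.15% lower at that level. The change of largest size was that of Mafg, a small MAF protein, at -0.30 (limma adjusted p = 0.0603), with the NCOR_KO livers at 7.74 to 7.83 and the WT livers at 7.98 to 8.25. Of 18 measured upstream kinases and factors, out of 23 listed, limma called 0 (2 higher and 5 lower at an unadjusted p under 0.05, median -0.06). Map2k6, a kinase that activates p38, was at -0.65 (95% interval -0.99 to -0.31, limma adjusted p = 0.0702), with the NCOR_KO livers at 6.72 to 7.13 and the WT livers at 7.17 to 7.99.

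Genes that regulate JUN protein or belong to the corepressor complex were read from a list of 8, chosen with earlier results known. Of these 2 rose, 1 fell and 5 did not pass, where 0.816% of all genes rose and 0.834% fell. Itch, an E3 ubiquitin ligase that targets JUN proteins for breakdown, was at 9.97 to 10.08 in WT and at 9.59 to 9.81 in NCOR_KO liver. It fell by 0.30 (SE 0.06, limma adjusted p = 0.0466), and the call was lost in 12 of 18 alternative fits, among them all 8 with 1 array left out. The risers were Tbl1xr1 (0.86) and Tbl1x (0.43), subunits that hold NCOR with HDAC3, the second losing its call in 9 of 18 alternative fits.

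On the MYC side, limma called 0 of 11 measured MYC network genes (1 higher and 2 lower at an unadjusted p under 0.05). It also called 0 of 17 measured MYC target genes (0 higher and 2 lower at that level). Over all genes 7.75% were higher and 8.15% lower at an unadjusted p under 0.05. The network list had a median of -0.10, with Mga, a MAX partner, at -0.35 (limma adjusted p = 0.131). The target list, of ribosome production and growth, had 9 members above 0 and 8 below, ran from -0.24 to 0.19 and had a median of 0.00. Its largest change was that of Odc1, the polyamine enzyme gene that MYC is known to induce, at -0.24 (95% interval -0.46 to -0.02, limma adjusted p = 0.276).

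Of the other 16 Krüppel-like factor genes limma called 0 (0 higher and 2 lower at an unadjusted p under 0.05, median -0.04). Over all genes 7.75% were higher and 8.15% lower at that level. Klf1, an erythroid factor, was at -0.48 (limma adjusted p = 0.0543) and passed in 6 of 18 alternative fits. Among 12 stress genes of the ATF3 and ATF4 response limma called 0 (2 higher and 0 lower at an unadjusted p under 0.05), with Atf5 at 0.40 (limma adjusted p = 0.121). Of 14 measured AP-1 target genes limma called 0, also 0 at an unadjusted p under 0.05, with 11 above 0 and a median of 0.09. The AP-1 target with the largest change, the metallothionein gene Mt1, was at -0.27 (95% interval -0.66 to 0.13, limma adjusted p = 0.500). Of 10 heat shock genes, which respond to handling of tissue, limma called 0, also 0 at an unadjusted p under 0.05. They ran from -0.13 to 0.08, with Hsph1 at -0.13 (limma adjusted p = 0.652).

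**Figure D4:**
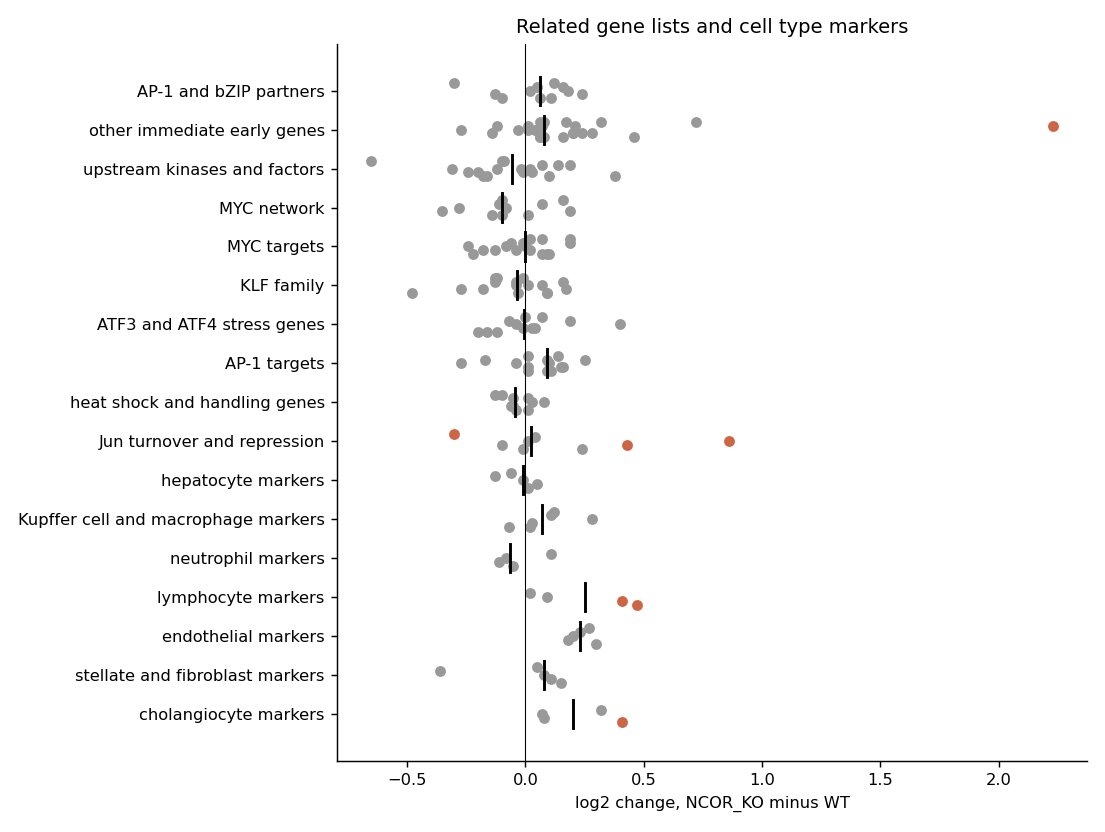
Log2 change from WT to NCOR_KO (horizontal axis) of each measured gene in the related lists and cell type marker lists (rows; vertical offsets only part the points), with orange for an adjusted p under 0.05 and a black tick at each list's median. Gadd45b stands at 2.23 among the other immediate early genes, and the 5 endothelial markers all lie above 0.

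Several immediate early genes are also expressed in liver cells other than hepatocytes, and their markers were set beside the rise of Jun. Endothelial markers were above 0 in 5 of 5 cases (0.18 to 0.30), 0 were called by limma, and Cdh5 was at 0.30 (limma adjusted p = 0.108). At an unadjusted p under 0.05, 4 of these markers were higher, where 7.75% of all genes were. Their summed linear intensity was 3934 to 4658 in WT and 4711 to 5395 in NCOR_KO liver, without overlap. Such sums weigh the brightest gene of a list most. Here that was Clec4g, whose own groups overlapped (log2 11.05 to 11.29 in WT and 11.26 to 11.56 in NCOR_KO liver). Cholangiocyte markers were above 0 in 4 of 4 cases, summing to 302 to 318 in WT and 350 to 419 in NCOR_KO liver. Epcam rose by 0.41 (limma adjusted p = 0.0452), a call lost in 12 of 18 alternative fits. Krt19 and Krt7 were at only 0.08 and 0.07 (limma adjusted p = 0.535 and 0.726). Sox9, the brightest of this list, was at 0.32 (limma adjusted p = 0.184), and its groups overlapped. Among 4 lymphocyte markers 2 rose, where 0.816% of all genes did. These were Cd3e (0.47, limma adjusted p = 0.0373) and Cd79a (0.41, limma adjusted p = 0.0173), losing the call in 10 and 5 of 17 alternative fits. The lymphocyte list summed to 291 to 338 in WT and 323 to 377 in NCOR_KO liver. The means of Cd3e (5.80) and Cd79a (5.29) over the arrays lay under the median gene level of 5.88. The brighter Ptprc and Nkg7 were at 0.02 and 0.09 (limma adjusted p = 0.957 and 0.663).

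Macrophage markers had 5 of 6 above 0 and 0 called by limma, also 0 at an unadjusted p under 0.05, with sums of 1515 to 2720 in WT and 1719 to 2926 in NCOR_KO liver and Cd68 at 0.28 (limma adjusted p = 0.599). Within its group each of the 6 was lowest in WT replicate 2 and in NCOR_KO replicate 1 (Cd68 at 7.27 and 7.64). Jun was highest within its group in the same arrays (9.41 and 10.16). Stellate and fibroblast markers had 4 of 5 above 0 and 0 called, also 0 at an unadjusted p under 0.05, with Lrat at -0.36 (limma adjusted p = 0.388) and sums of 3497 to 3917 and 3491 to 4241. Neutrophil markers had 1 of 4 above 0 and 0 called, also 0 at an unadjusted p under 0.05, with Retnlg at -0.11 (limma adjusted p = 0.549) and sums of 62.7 to 76.3 and 62.3 to 67.2. The 5 hepatocyte markers had a median change of -0.01, with Serpina1c at -0.13 (limma adjusted p = 0.291). No marker was listed at 0, as the table holds no zero, and the part of these cell types in the change of Jun was not tested.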

How the data were processed

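The authors deposited linear probe-set intensities, with 1 column for each array. RMA and Partek are named by the submitters' processing notes, without version or role, and filters and genome build are not given in the sources used here. Log2 was taken with no further normalization. Of 41345 rows, 23521 were annotated to 1 gene, 1814 to several and 16010 to none, and the last 2 kinds were left out. Of the single-gene rows 23328 matched a RefSeq table (GRCm38.p6) by gene identifier and 193 did not. For 1082 genes with several rows the brightest was kept, giving 22180 genes with no filter on dim ones. Groups and replicate numbers came from the sample titles.

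NCOR_KO was compared with WT by limma 3.58.1 on R 4.3.3 (lmFit and eBayes at default settings, with group as the only term), with Benjamini-Hochberg adjustment. The genes and the 18 related lists were chosen with earlier results of these data known, so lists are given by counts and medians only. 185 of 199 list entries were measured, Cyr61, Ctgf, Mkl1, Mkl2 and Rfwd2 as Ccn1, Ccn2, Mrtfa, Mrtfb and Cop1, and none of the erythroid markers was analysed here. Named were the 10 genes, up to 4 called genes of each list or else the 1 with the largest change, and the 5 genes most like Jun, leaving out predicted symbols; Dusp1 was added after its values were seen and had no alternative fits. The 18 alternative fits for a gene were quantile normalization, centring, array weights, trend with robust variance, genes below the median level left out, the mean of a gene's rows, every row singly, the replicate block, treat, each array left out, and WT replicate 2 with NCOR_KO replicate 1 left out; thresholds of 0.01 and 0.1 were tried for counts, and genes below the median level had 17 fits. Promoter sequences are RefSeq's. In simulated data with 50 of 22180 genes changed per fold size, 12% were called at 1.2-fold, 84% at 1.5-fold, 98% at 2-fold and 100% at 4-fold, with 8 unchanged genes called, and with no change planted 0 were called. The changed genes were drawn from all genes, whose median SD within groups was 0.11. Jun and Myc had a pooled SD of 0.37 and 0.39, so these shares need not hold for them. Figures were drawn with matplotlib 3.10.9.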

Additional observations from a re-analysis of the deposited data

Results flagged for a closer look

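Among 70 groups of 4 arrays, 2 for each of 35 named genes, 3 held a value far from the other 3 arrays by Dixon's ratio of gap to range, and chance gives about 1 in 20. Atf3 in WT replicate 2 was at 6.57 against 6.05 to 6.14 in the other controls (ratio 0.830). Hsph1 in WT replicate 3 was at 9.28 against 8.94 to 8.95 (ratio 0.973). Nfil3 in WT replicate 4 was at 7.30 against 7.77 to 7.80 (ratio 0.929).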

How the results depend on the processing

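Of the 10 transcription factors 1 was called; the count was 2 (Jun and Myc) with array weights, with genes below the median level left out, at a threshold of 0.1 and without WT replicate 2 and NCOR_KO replicate 1 together, 0 with a limma treat test against 1.2-fold (36 of all genes) and at a threshold of 0.01, and 0 to 1 with single arrays left out. Over all genes the 366 calls became 551 with genes below the median level left out, 36 with treat, 88 and 807 at thresholds of 0.01 and 0.1, 202 without WT replicate 2 and NCOR_KO replicate 1, and 120 to 297 with single arrays left out. The split of 181 higher and 185 lower became 145 and 295 with each array centred on its median, which moved the median change of all genes from 0.0063 to -0.0295. The replicate block gave 155 calls and 1 of the 10 genes, Myc (adjusted p = 0.0178) in place of Jun (adjusted p = 0.0505); same-numbered arrays deviated together in no pair above 0.1 (-0.094 to 0.017), so the numbers were not taken to pair the samples. The signs of Fos and Fosb turned: Fos was at -0.02 with quantile normalization, -0.01 with centring and -0.05 without WT replicate 2 and NCOR_KO replicate 1, and -0.04 to 0.10 with single arrays left out; Fosb was at -0.01 with quantile normalization and -0.02 to 0.08 with single arrays left out. The other 8 genes kept their sign in all 18 alternatives, Jun at 0.97 to 1.30 with adjusted p from 0.00975 to 0.244, 8 of 18 missing the threshold. Myc passed in 5 of 18, with adjusted p from 0.0178 to 0.949. The causes were not tested.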
